A study of Mus musculus with 48 samples.

Results

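Distal acetylated regions were defined in mouse embryonic stem (ES) cells as stretches of chromatin that carried histone H3 acetylated at lysine 27 (H3K27ac) in wildtype cells, away from promoter-type chromatin and away from ZBTB11. A region qualified when its wildtype H3K27ac domain was 200 bp or longer, when no wildtype domain of H3 trimethylated at lysine 4 (H3K4me3) lay within 1 kb, and when no binding event of HA-tagged ZBTB11 lay within 500 bp. Of 48838 wildtype H3K27ac domains, 18129 were 200 bp or longer, and 2955 of those met the rule. Among the others, 14957 had H3K4me3 within 1 kb and 217 were distal with a ZBTB11 event. The wildtype H3K27ac, wildtype H3K4me3 and ZBTB11 lists chose the regions, so these values and the later change of H3K27ac or H3K4me3 at them are given as descriptions without a test.

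H3K27ac away from promoters is the usual mark of candidate enhancers, elements that bind transcription factors and act on promoters at a distance. CHD4 is the remodelling ATPase of the NuRD complex and SIN3A the scaffold of another histone deacetylase complex, and both are found at active as well as silenced elements. NELF holds RNA polymerase II in the paused state shortly after initiation, when the polymerase's tail is phosphorylated on serine 5 (POL2S5P), and SETD1A is a methyltransferase for H3K4.

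The study measured 9 targets by chromatin immunoprecipitation and sequencing in 48 samples, in 24 groups of 2 libraries. The lines derive from Ainv15 ES cells: a wildtype line (iCre), a Zbtb11 knockout carrying doxycycline-inducible HA-tagged Zbtb11, a Zfp131 knockout carrying inducible HA-tagged Zfp131, and a double knockout carrying inducible HA-tagged Zbtb11 and V5-tagged Zfp131. For all targets other than HA, cells of every genotype were kept for 3 days without doxycycline in medium with LIF and without 2i, the pair of kinase inhibitors that holds ES cells in the naive state, so that the knockouts lacked their transgene product. ZBTB11-HA and ZFP131-HA were mapped in 2i with LIF and with doxycycline for 3 days, which is another medium and an induced protein. Each genotype is 1 line, so genotype and line cannot be told apart. A p-value here sets the difference between genotypes against the estimated spread of libraries within a group. The labels do not say that the libraries came from separate cultures, so that spread may be technical. In bulk samples, fewer cells with a mark and less of the mark per cell cannot be told apart.

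The event lists name between 24.0 M and 71.6 M reads (M, mega) per target and genotype, summed over libraries, and the domain lists give no totals. Binding events (for CHD4, SIN3A, NELF, SETD1A, ZBTB11 and ZFP131) and domains (for histone marks and POL2S5P) were called on pooled libraries, so a listed read number carries no replicate error. The wildtype NELF list names 1 replicate in its header and the knockout lists name 2. The NELF table deposited for Zfp131KO is identical to the one for Zbtb11KO, and the SIN3A event list for Zfp131KO is identical to the CHD4 list for the same line, so neither was used. The NELF table and the CHD4 list that were kept match their labels by position. The NELF table held all 556 NELF events found in Zbtb11KO away from wildtype events and 11.7% of the 1038 found so in Zfp131KO. Likewise the CHD4 table for Zfp131KO held all 8228 such events of the kept list. The SIN3A table for Zfp131KO held 4.2% of the 5580 events of that list away from wildtype SIN3A. It has no event list of its own, so its label could not be checked in this way. It held 81.5% of wildtype SIN3A events, where the SIN3A table for Zbtb11KO held 100%. Each of the NELF, CHD4 and Zbtb11KO SIN3A tables held all of its knockout's events away from wildtype events, so a region without a wildtype event could enter through an event in the knockout. The 2 knockouts were each compared with the same wildtype libraries, so their tables are set side by side without counting overlaps.

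Sequences are shown for 3 places that the results below return to: a start site inside an acetylated region at Cdkn1a, a start site inside a region at Tnrc6a, and the microRNAs encoded beside a long acetylated stretch on chromosome 7. They were taken from RefSeq (GRCm38.p6) and matched by coordinates to the authors' mm10 domains. In all, 26 of the 2955 regions held an annotated start site, 10 of them a protein-coding one, and 14 promoter windows lay whole inside 11 regions. Parts of 2 of these windows are printed as the 250 bases before the start, 5′ to 3′ on the gene's strand. In the window of a Cdkn1a transcript (chr17:29090729-29090978, plus strand) the capitals mark the match to CATG, any 6 bases and CATG, the core letters of a paired p53 site, whose first base lies 48 bases before the start. In the window of Gm39084 (chr7:123098239-123098488, minus strand), inside the region nearest to Tnrc6a, the capitals mark ATGCAAAT, the reverse complement of the octamer ATTTGCAT bound by OCT factors, whose first printed base lies 217 bases before the start.
Cdkn1a: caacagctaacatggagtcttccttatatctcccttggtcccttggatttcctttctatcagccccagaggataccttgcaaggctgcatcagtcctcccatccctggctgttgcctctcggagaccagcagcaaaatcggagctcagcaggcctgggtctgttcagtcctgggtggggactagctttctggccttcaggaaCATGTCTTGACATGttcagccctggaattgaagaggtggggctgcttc
Gm39084: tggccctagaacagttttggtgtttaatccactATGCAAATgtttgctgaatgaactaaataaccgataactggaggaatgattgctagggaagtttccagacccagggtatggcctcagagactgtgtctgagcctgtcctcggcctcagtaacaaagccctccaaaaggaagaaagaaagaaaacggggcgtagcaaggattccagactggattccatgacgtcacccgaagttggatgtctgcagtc

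In all, 7 motifs were searched on both strands over the 300-base promoter windows, and the p53 pair was added after the Cdkn1a sequence had been seen. The p53 pair was present in 0.712% of 32851 windows and in 1 of the 14 windows inside acetylated regions. The octamer was present in 1.74% of all windows and in 1 of the 14. The AP-1 letters TGACTCA were present in 5.20% and 1 of 14, and the GC box GGGCGG in 35.7% and 1 of 14. CATTGTT (SOX), TCAAGGTCA (ESRRB) and GGGTGTGG (KLF) were found in 3.78%, 0.423% and 3.56% of all windows and were not among the letters of the 14. With 14 windows, no share inside the regions can be set apart from the genome's, and a match is a description of letters.

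The microRNAs belong to the Mir290 cluster, whose products are the most abundant microRNAs of mouse ES cells. The Mir290a hairpin (chr7:3218626-3218708) lies 13989 bp beyond the end of a stretch of 8 acetylated regions. The capitals mark the seed, bases 2 to 8, which directs target pairing.
miR-290a-3p: aAAGUGCCgccuaguuuuaagccc
miR-291a-3p: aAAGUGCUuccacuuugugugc
miR-291b-3p: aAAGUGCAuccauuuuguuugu
miR-293-3p: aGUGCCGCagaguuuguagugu
miR-294-3p: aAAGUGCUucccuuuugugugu
miR-295-3p: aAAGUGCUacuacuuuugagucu
The 6 microRNAs carry 4 distinct seeds, and miR-291a-3p, miR-294-3p and miR-295-3p share AAGUGCU. Of 1005 hairpins in the RefSeq table, 39 lay within 10 kb of an acetylated region and 5 within 1 kb.

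The regions were short and mostly far from gene ends, as their label states. The median length was 366 bp (quartiles 264 and 535 bp), and the longest was 4859 bp. The median region held 75 wildtype H3K27ac reads (quartiles 54 and 123), or 211 reads per kb, against 143 reads and 266 reads per kb at domains with H3K4me3. Inside the span of a protein-coding gene lay 1575 regions (53.3%). The median distance to the nearest gene end was 16122 bp, against 275 bp for domains with H3K4me3 and 15694 bp for distal domains with ZBTB11. Only 166 regions (5.62%) lay within 1 kb of a gene end, while 1855 (62.8%) lay beyond 10 kb and 174 (5.89%) beyond 100 kb. Chromosome X held 8 of them (0.271%), against 1.94% of the domains with H3K4me3. No measure of H3K4 monomethylation or of a coactivator was analysed here, so they remain candidate enhancers by acetylation and position.

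At the edges of the rule, the values passed smoothly from outside to inside. The 469 otherwise qualifying domains of 180 to under 200 bp held a median of 37 reads, and the 261 regions of 200 to under 220 bp a median of 43. The 103 domains excluded by an H3K4me3 domain over 800 and up to 1000 bp away held a median of 74 reads, and the 85 kept with one over 1000 and up to 1200 bp away a median of 85. The 25 domains with ZBTB11 over 300 and up to 500 bp away held a median of 87 reads, and the 25 regions with it over 500 and up to 700 bp away a median of 73.

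The 2955 regions had 1603 different nearest genes. Joined where they lay within 10 kb of each other, they formed 1881 stretches, of which 1260 held 1 region, 389 held 2 and 232 held 3 or more. Msi2, an RNA-binding protein of stem and progenitor cells, had 22 regions nearest to it and Etl4 had 17. Etv5, an ETS factor downstream of FGF signalling, had 10. The stretch with the most wildtype H3K27ac reads lay at Col18a1, a collagen gene (chr10:77182916-77207424), with 10 regions and 2999 reads. The domains over it held 1152 reads in the Zbtb11KO list and 1985 in the Zfp131KO list. Stretches at Ncoa7 (chr10:30727678-30738674, 2137 reads) and Pcbp1 (chr6:86519456-86527845, 2103 reads) followed. The Ncoa7 stretch was listed with 1577 and 1181 reads in Zbtb11KO and Zfp131KO, and the Pcbp1 stretch with 1770 and 2200. Listed reads are not scaled between genotypes, and a knockout domain may extend past the region, so they show where acetylation was listed and are not a fold change.

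On chromosome 7, the stretch beside the Mir290 cluster (chr7:3193465-3204637, nearest genes AU018091 and Nlrp12) held 8 regions and 1263 wildtype reads, and 2029 and 2033 reads in the Zbtb11KO and Zfp131KO lists. Its strongest region, starting at 3200878, was listed with 593, 868 and 951 reads in wildtype, Zbtb11KO and Zfp131KO. The region nearest to the hairpin, starting at 3203370, was listed with 259, 670 and 570 reads. Both of these regions were listed with more reads in each knockout than in wildtype. In the authors' deposited tables the H3K27ac changes at 3200878 were 0.55 in Zbtb11KO and 0.58 in Zfp131KO, neither called. Those at 3203370 were 1.00 and 0.78, both called higher. The region at 3200878 also held SIN3A (152.5 reads) and NELF (152.9 reads in wildtype and no listed event in any knockout), and NELF there was lower in Zbtb11KO by the authors' deposited table (log2 fold change −1.26 ± 0.39 SE, adjusted p = 0.00639). The neighbour at 3203370 had a wildtype NELF event of 87.7 reads and none in the knockout lists, and in the authors' deposited table its log2 fold change was −0.09 (adjusted p = 0.878). An event that is no longer listed therefore did not always go with a lower value in the table.

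The 10 regions with the most acetylation were unlike each other in what bound them. The region 66 bp from Pcbp1, which encodes an RNA-binding protein (chr6:86526255-86527845), held 1984 wildtype H3K27ac reads and was listed with 1596 and 1899 reads in Zbtb11KO and Zfp131KO. No CHD4, SIN3A, NELF or SETD1A event lay within 500 bp of it, and its POL2S5P domain held 28 reads. The region in Ppp2r5c, a phosphatase regulatory subunit (chr12:110470833-110473825), held 1941 reads and was listed with 1859 and 2322 in the 2 knockouts. It had events of all 4 factors, with 52.2 reads of CHD4, 143 of SIN3A, 151.2 of NELF and 165 of SETD1A. Its NELF event was absent from all 3 knockout lists, and NELF fell there in Zbtb11KO (authors' deposited table, log2 fold change −1.45 ± 0.44, adjusted p = 0.00523).

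The region nearest to Mcl1, a BCL2-family survival gene (chr3:95650215-95655074), was the longest at 4859 bp and was listed with 1787 H3K27ac reads in wildtype, 2444 in Zbtb11KO and 3711 in Zfp131KO. It kept a listed NELF event in the single knockouts, with 162.7 reads in wildtype, 121.7 in Zbtb11KO and 183.5 in Zfp131KO, and had none in the double knockout. The region at Ranbp3, a nuclear export cofactor (chr17:56708752-56711096), was listed with 1081, 972 and 1988 H3K27ac reads. Its NELF event was listed in every genotype, with 118.2 reads in wildtype and 63.7, 254.2 and 205.2 in Zbtb11KO, Zfp131KO and the double knockout. CHD4 rose there in Zfp131KO (authors' deposited table, 1.10 ± 0.35, adjusted p = 0.0153). Ranbp3 had no wildtype H3K4me3 domain within 1 kb, and an H3K4me3 domain was listed within 500 bp in the 3 knockout lists with 517, 1505 and 5632 reads. Adam23 (962 reads), Lcor (825) and Ncoa7 (762) were listed with fewer H3K27ac reads in both knockouts, namely 618 and 756, 345 and 357, and 341 and 397. At Lcor, a ligand-dependent corepressor, the wildtype NELF event of 204.9 reads was absent from the knockout lists and NELF fell in Zbtb11KO (authors' deposited table, −1.83 ± 0.48, adjusted p = 0.0014). Kazn (737 reads) was listed with more reads in the knockouts, 1042 and 1752.

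Polymerase and SIN3A were the most frequent companions of the regions in wildtype cells, and CHD4 and SETD1A were found at about 1 region in 10. Within 500 bp, 1860 regions (62.9%) had a POL2S5P domain, 1466 (49.6%; Wilson 95% interval 47.8 to 51.4%, counting error only) a SIN3A event and 1298 (43.9%; 42.1 to 45.7%) a NELF event. CHD4 was listed at 319 (10.8%; 9.73 to 12.0%) and SETD1A at 275 (9.31%). ZFP131-HA was listed at 8 (0.271%) and H3K27me3, the Polycomb mark, at 15 (0.508%). At domains with H3K4me3 the shares were 95.2% for POL2S5P, 95.02% for SIN3A, 92.1% for NELF, 62.5% for SETD1A and 14.8% for CHD4. CHD4 was thus the factor whose share differed least between the 2 classes, and SETD1A the one that differed most in ratio among the 5. Where events were present, the median NELF event at the regions held 87.1 reads against 391.1 at domains with H3K4me3, and the median SIN3A event 88.6 against 214, while the median CHD4 event held 60.3 against 67.0. The shares depend on the distance allowed: counting overlap alone, CHD4 was at 4.37%, SIN3A at 24.8%, NELF at 28.2% and SETD1A at 2.54% of the regions.

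**Figure D1:**
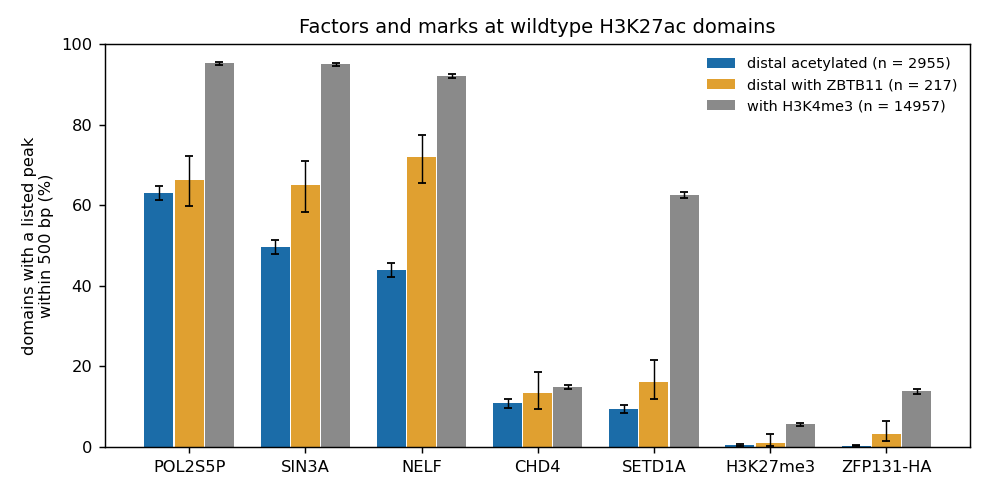
Share of wildtype H3K27ac domains, in percent, with an event or domain of each target within 500 bp, for the 2955 distal acetylated regions, the 14957 domains with H3K4me3 and the 217 distal domains with ZBTB11. Bars are shares and whiskers are Wilson 95% intervals for counting error only. SIN3A stands at 49.6% of distal regions and 95.02% of domains with H3K4me3, while CHD4 stands at 10.8% and 14.8%.

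The factors occurred in a few common combinations. None of the 5 was listed at 510 regions (17.3%), SIN3A with NELF and POL2S5P at 487 (16.5%), POL2S5P alone at 428 (14.5%), SIN3A with POL2S5P at 356 (12.1%) and CHD4 alone at 75 (2.54%). Among the 275 regions with SETD1A, 229 (83.3%) had POL2S5P and 217 (78.9%) had SIN3A. Among the 319 with CHD4, 168 (52.7%) had POL2S5P, below the 62.9% of all regions, and 176 (55.2%) had SIN3A, above the 49.6% of all. Each of the 5 targets was listed at a larger share of the strongest regions than of the weakest. From the lowest to the highest quartile of H3K27ac reads, SIN3A went from 37.9% to 64.3%, NELF from 32.6% to 60.6%, CHD4 from 8.93% to 15.8% and SETD1A from 5.28% to 14.8%. Regions with SETD1A held a median of 102 H3K27ac reads against 73 without it, and those with SIN3A 87 against 67. They were also longer, with medians of 441 against 356 bp for SETD1A and 411 against 324 bp for SIN3A. Per kb the reads lay closer, at 226 against 209 for SETD1A and 216 against 207 for SIN3A. The part of length in these values and in the quartile shares was not tested.

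Most regions with NELF in wildtype had no listed NELF event in any knockout list. Of 1298 such regions, the lists of Zbtb11KO, Zfp131KO and the double knockout held an event at 104 (8.01%), 200 (15.4%) and 79 (6.09%). At 13773 domains with H3K4me3 and a wildtype NELF event the shares were 70.9%, 74.4% and 51.1%, and at 156 distal domains with ZBTB11 20.5%, 30.8% and 16.0%. NELF events at the regions were smaller to begin with, and the difference between the classes varied with the size of the wildtype event. Under 80 wildtype reads, where 520 of the 1298 regions fell, 7.89% of them and 11.5% of 418 domains with H3K4me3 had a listed event in Zbtb11KO. There the shares were 15.8% and 19.1% in Zfp131KO, and 8.85% and 8.13% in the double knockout, so the classes lay close together. From 80 to under 120 reads (468 regions and 1127 domains) they were 7.69% and 15.6%, 13.7% and 20.4%, and 4.92% and 6.39% in the same order. From 120 to under 200 reads (267 and 1969) they were 5.24% and 30.4%, 15.7% and 39.0%, and 2.62% and 13.6%. The classes thus lay apart mainly among the larger events, and event size moves with the pooled shares. The NELF lists of the knockouts are shorter throughout, with 18007, 20262 and 9945 events against 60915 in wildtype, and the share of reads in events was 9.8%, 11.4% and 5.1% against 23.1%. The part of this in the regions' values was not tested.

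**Figure D2:**
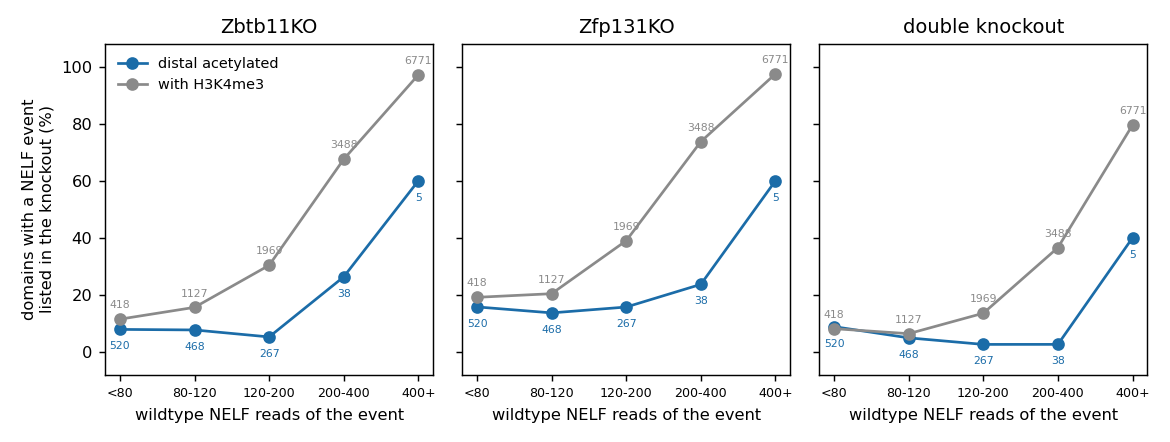
Share, in percent, of H3K27ac domains with a wildtype NELF event that also had a listed NELF event within 500 bp in each knockout, by the reads of the wildtype event; small numbers give the domains in each class. Distal regions lie below domains with H3K4me3 in the class of 120 to under 200 reads, at 5.24% against 30.4% in Zbtb11KO, and close to them under 80 reads, at 7.89% against 11.5%; the class of 400 reads or more holds 5 distal regions.

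In the authors' deposited table for NELF in Zbtb11KO, 1149 of the 2955 regions overlapped a tested region, and 418 of them (36.4%) were lower at an adjusted p under 0.05, against 49% of all regions of the table. Rises were called at 2, against 0.159% of the table. The median log2 fold change at the regions in the authors' deposited table was −1.10, beside −1.04 over the whole table and −0.97 at domains with H3K4me3, where 58.4% were called lower. The smaller share of calls at the distal regions went with a lower mean signal in that table (median 4182 against 20470 at domains with H3K4me3) and a larger median standard error (0.594 against 0.380), and their part in it was not tested. The share called lower at the regions was thus below that of the whole table while the median change was of like size.

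Among the falls named by size, Cd160 had the wildtype NELF event of 265 reads and none in the knockouts (authors' deposited table, −2.36 ± 0.42, adjusted p = 3.34e-06). Enah, an actin regulator, fell by 2.25 ± 0.43 (authors' deposited table, log2 scale, adjusted p = 1.5e-05; 167.4 reads in wildtype, none listed in the knockouts). Gpx4, the enzyme that removes lipid peroxides, fell by 2.17 ± 0.47 there (authors' deposited table, adjusted p = 0.00017; 185.1 reads and none). A region nearest to Gm52481 on chromosome Y fell by 2.44 ± 0.40 in the authors' deposited table (adjusted p = 4.44e-07; 319.5 reads and none). That region's 110 wildtype H3K27ac reads stood beside 97 control reads, where the median of all regions was 16 control reads. These 4 regions had sizeable wildtype NELF events that were absent from every knockout list. The rises were at Ubtd1, where events of 112.5, 196.1, 325 and 289.9 reads were listed in wildtype, Zbtb11KO, Zfp131KO and the double knockout (authors' deposited table for Zbtb11KO, 1.21 ± 0.40, adjusted p = 0.0102), and at Ripor2 (chr13:24565435-24565791), which was named after its values were seen. Ripor2 had no wildtype NELF event and 71.6, 65.2 and 113.5 reads in the knockouts (authors' deposited table, 1.83 ± 0.64, adjusted p = 0.0145). Of 5 regions with a wildtype NELF event of 400 reads or more, 3, 3 and 2 had a listed event in Zbtb11KO, Zfp131KO and the double knockout. The strongest, at H1f2, a linker histone gene, had 1164.9 reads in wildtype and 910.5, 985.1 and 672.8 in the knockouts. At Igdcc3 the 4 values were 1154.2, 436.1, 737.8 and 386.5. At Kif13b, in contrast, an event of 518 reads was absent from all 3 knockout lists.

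CHD4 changed in both directions at the regions, and its Zfp131KO list held more events near them than the wildtype list. Listed CHD4 events lay within 500 bp of 319 regions in wildtype, 229 (7.75%) in Zbtb11KO and 691 (23.4%) in Zfp131KO, from lists of 7687, 4796 and 12492 events. In the authors' deposited table for Zfp131KO, 646 regions overlapped a tested region, and 93 (14.4%) rose, against 8.05% of the whole table, while 57 (8.82%) fell, against 8.09%. Their median log2 fold change in the authors' deposited table was 0.32, beside 0.01 over the table and −0.19 at domains with H3K4me3, of which 2.92% rose and 5.49% fell. In Zbtb11KO, 335 regions were in the authors' deposited table and 41 (12.2%) rose, against 9.4% of the table, while 14 (4.18%) fell, against 2.82%. The median at the regions in the authors' deposited table for Zbtb11KO was −0.02. Regions with no overlapping table region, 2620 and 2309 in Zbtb11KO and Zfp131KO, have no value here. A CHD4 event was listed in Zfp131KO and not in wildtype at 515 regions, and in wildtype alone at 143. In Zbtb11KO these numbers were 135 and 225. A region could enter a table through an event of the knockout, which favours rises. The part of this in the CHD4 shares and medians, here and below, was not tested.

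The CHD4 rises in Zbtb11KO named by size were at Manba, Bcas2, Arl14epl and Rybp, none with a CHD4 event in wildtype. At Manba, a lysosomal mannosidase gene, an event of 131 reads was listed in Zbtb11KO (authors' deposited table, 2.09 ± 0.35, adjusted p = 1.25e-06). At Rybp, a subunit of Polycomb repressive complex 1, the event held 85.5 reads (authors' deposited table, 1.96 ± 0.40, adjusted p = 8.51e-05). All 4 regions were listed with more H3K27ac reads in both knockouts than in wildtype: 77, 188 and 201 at Manba, 98, 1002 and 703 at Bcas2, 69, 599 and 342 at Arl14epl, and 194, 775 and 857 at Rybp. The falls were at Spaca7, Chd6, Wipf2 and Reck, whose wildtype events of 84.1, 81, 75 and 87.3 reads were absent from the Zbtb11KO list. At Chd6, a remodeller related to CHD4, the authors' deposited table gave −1.65 ± 0.40 (adjusted p = 0.0014), and the H3K27ac domain of 195 wildtype reads was listed in neither knockout. Spaca7 went from 260 wildtype H3K27ac reads to 10 in each knockout, and neither Wipf2 (56 reads) nor Reck (103 reads) was listed in a knockout. At these 8 regions the listed acetylation lay on the same side as the CHD4 change.

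In Zfp131KO the named rises were at Ndufs1, Rybp and Lifr. At Ndufs1, a complex I subunit, 2 regions of 42 and 48 wildtype H3K27ac reads shared 1 table region and 1 Zfp131KO domain of 2618 reads (authors' deposited table for CHD4, 1.94 ± 0.32, adjusted p = 3.29e-07), with a CHD4 event of 159.2 reads and none in wildtype. Rybp rose in Zfp131KO too (authors' deposited table, 1.78 ± 0.38, adjusted p = 0.000118). The falls were at Wipf2 (authors' deposited table, −2.06 ± 0.40, adjusted p = 2.6e-05), at Ypel2 (authors' deposited table, −1.68 ± 0.37, adjusted p = 0.000285) and at 2 regions near Tlk2 that share a table region (authors' deposited table, −1.70 ± 0.35, adjusted p = 7.32e-05). The wildtype CHD4 events of 69.9 reads at Ypel2 and 105.8 reads at Tlk2 were not on the Zfp131KO list. Ypel2 held 194 wildtype H3K27ac reads and was listed in neither knockout.

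Across the regions, CHD4 and H3K27ac moved to the same side wherever both were called, with none on opposite sides. The 2 targets come from different libraries, and H3K27ac is a description here. Of the 93 regions where CHD4 rose in Zfp131KO, H3K27ac was called higher at 61 (65.6%) and lower at 0, with a median log2 fold change of 0.96 in the authors' deposited table. Of the 57 where CHD4 fell, H3K27ac was called lower at 47 (82.5%) and higher at 0, with a median of −1.84 in the authors' deposited table. In Zbtb11KO the 41 rises of CHD4 held 19 regions with higher H3K27ac and 0 with lower, and the 14 falls held 13 with lower and 0 with higher. Where CHD4 was tested in Zfp131KO and not called, 111 of 496 regions had higher H3K27ac and 55 lower. Domains with H3K4me3 showed the same sides, with 62 of 90 CHD4 rises in Zfp131KO also higher in H3K27ac and 77 of 169 falls also lower, with 1 on the opposite side. The coupling of the 2 calls is therefore not particular to the distal regions.

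**Figure D3:**
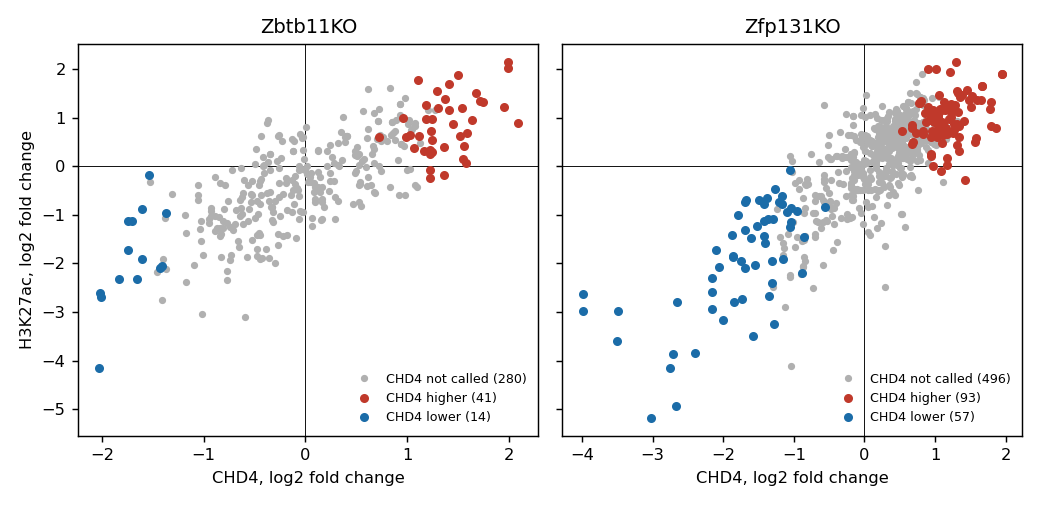
Log2 fold change of CHD4 (horizontal axis) against that of H3K27ac (vertical axis), knockout over wildtype, at distal acetylated regions that overlap a region of both tables, in Zbtb11KO and Zfp131KO; each point is 1 region. Regions called for CHD4 in Zfp131KO lie with 61 of 93 rises also higher in H3K27ac and 47 of 57 falls also lower.

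The event lists come from the same CHD4 libraries as the tables, so they are no separate support. They include regions without a table value and gave the same sides. At 143 regions with a CHD4 event in wildtype and none in Zfp131KO, H3K27ac was called lower at 94 (65.7%) and higher at 1. At 515 with an event in Zfp131KO alone, it was called higher at 186 (36.1%) and lower at 22. At 225 regions with an event in wildtype and none in Zbtb11KO it was lower at 99 (44.0%) and higher at 3, and at 135 with an event in Zbtb11KO alone it was higher at 51 (37.8%) and lower at 3. At domains with H3K4me3 the matching shares were smaller: 25.9% lower where the event was listed in wildtype and not in Zfp131KO, and 19.8% higher where it was listed in Zfp131KO alone. Whether these shares differ between the classes was not tested. At distal regions with an event in neither list, H3K27ac was lower at 24.5% and higher at 12.45% in Zfp131KO. In Zbtb11KO these shares were 15.75% and 7.24%. Over all 2955 regions they were 22.4% and 16.1% in Zfp131KO, and 17.1% and 8.32% in Zbtb11KO. The choice of regions by wildtype H3K27ac favours falls.

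SIN3A changed at few of the regions, in both directions. In Zbtb11KO, 1383 regions were in the authors' deposited table, of which 54 (3.905%) rose, against 3.44% of the table, and 73 (5.28%) fell, against 3.23%. In Zfp131KO, 1011 were in the authors' deposited table, 33 (3.26%) rose, against 2.98%, and 47 (4.65%) fell, against 2.84%. At an adjusted p under 0.01 the Zfp131KO counts were 18 rises and 16 falls. The label of the Zfp131KO table could not be checked against an event list. The medians in the authors' deposited tables were −0.11 in Zbtb11KO and −0.13 in Zfp131KO, beside 0.05 and 0.10 at domains with H3K4me3. A SIN3A event was listed at 935 regions (31.6%) in Zbtb11KO against 1466 in wildtype, from lists of 59451 and 83126 events.

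At the falls of SIN3A, H3K27ac was called lower more often than higher in Zbtb11KO, and about evenly in Zfp131KO. Golga4, a golgin gene, lost its listed event of 227.7 reads in Zbtb11KO (authors' deposited table, −1.45 ± 0.26, adjusted p = 1.25e-05) and was listed with 94, 0 and 39 H3K27ac reads in wildtype, Zbtb11KO and Zfp131KO. Ubqln4 lost a listed event of 201.5 reads (authors' deposited table, −1.32 ± 0.24, adjusted p = 1.62e-05), while its H3K27ac was listed with 273, 806 and 1277 reads. Acetylation in Zbtb11KO was thus listed lower at the first and higher at the second. In the authors' deposited table its change was −1.21 at Golga4 (adjusted p = 0.00691) and 0.24 at Ubqln4 (adjusted p = 0.586), so only the first was called. SIN3A rose in Zbtb11KO at Ppm1f, a phosphatase gene, with events of 68.2 and 160.9 reads (authors' deposited table, 1.31 ± 0.28, adjusted p = 0.000391). In Zfp131KO the largest named rise was at Fanci, a gene of DNA crosslink repair (authors' deposited table, 1.53 ± 0.25, adjusted p = 7.67e-07). SIN3A fell there at Tlk1, a chromatin assembly kinase (authors' deposited table, −1.39 ± 0.26, adjusted p = 4.19e-05), and at Nudt3 (authors' deposited table, −1.31 ± 0.25, adjusted p = 5.59e-05). Nudt3 also fell for NELF in Zbtb11KO (authors' deposited table, −2.62, adjusted p = 0.00016). Over all 73 falls of SIN3A in Zbtb11KO, H3K27ac was called lower at 24 (32.9%) and higher at 3, beside 17.1% and 8.32% of all regions. Over the 47 in Zfp131KO it was lower at 10 and higher at 8, beside 22.4% and 16.1% of all regions.

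**Figure D4:**
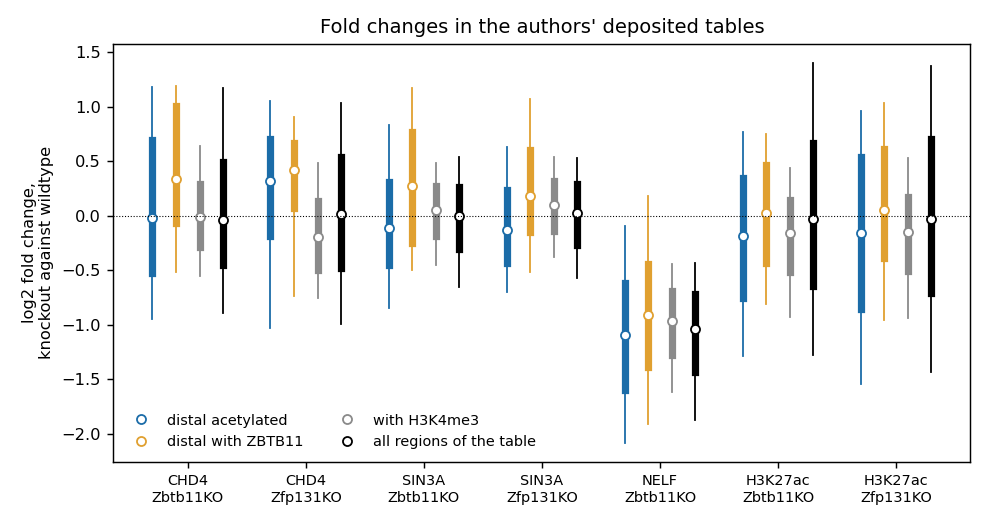
Log2 fold change, knockout over wildtype, of each target in the authors' tables at distal acetylated regions, domains with H3K4me3, distal domains with ZBTB11 and all regions of the table. Circles are medians, thick bars the quartiles and thin bars the 10th to 90th percentiles; the NELF median at distal regions is −1.10 and that of the whole table −1.04.

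H3K27ac itself was called lower more often than higher at the regions, which were chosen for having it in wildtype. In Zbtb11KO, 246 of 2955 (8.32%) were called higher, beside 14.6% of all regions of the authors' deposited table, and 505 (17.1%) lower, beside 11.8%. In Zfp131KO, 475 (16.1%) were higher, beside 15.8%, and 663 (22.4%) lower, beside 14.3%. Among regions whose mean signal reached the table's median, 136 were called higher and 7 lower in Zbtb11KO, and 286 and 12 in Zfp131KO. That mean is taken over wildtype and knockout libraries together, so this cut favours rises. In the highest quartile of wildtype reads, 7.44% were called higher and 14.5% lower in Zbtb11KO, and 19.9% each in Zfp131KO. Nothing is read from these shares, since the choice of regions favours falls and the cut on mean signal favours rises. Of the domains with H3K4me3, chosen from the same wildtype list, 3.34% and 10.7% were called higher and lower in Zbtb11KO and 5.997% and 12.0% in Zfp131KO. Of the 217 distal domains with ZBTB11, 18 were called higher and 17 lower in Zbtb11KO, and 45 and 22 in Zfp131KO. The median log2 fold changes of the 2955 in the authors' deposited tables were −0.18 and −0.15. An H3K27ac domain overlapped 2004 of the regions (67.8%) in Zbtb11KO and 2105 (71.2%) in Zfp131KO. In the lowest quartile of wildtype reads 50.7% and 53.9% were overlapped, and in the highest 85.9% and 88.4%. The overlapping domain covered 2 or more wildtype domains at 457 and 645 regions, where its median length was 1093 and 1347 bp.

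The largest described rises included Rbpj, the DNA-binding effector of Notch signalling, with 59, 1414 and 1727 H3K27ac reads listed in wildtype, Zbtb11KO and Zfp131KO (authors' deposited tables, 1.88 and 1.99). Eif2s2 was listed with 55, 1060 and 645 reads (authors' deposited table for Zfp131KO, 2.14), and Plekha5 with 48, 604 and 3098 (2.00 in the same authors' deposited table). These regions stood low in wildtype and were overlapped by large domains in both knockouts. Among the falls, Npl was listed with 235, 44 and 84 reads (authors' deposited tables, −1.39 and −1.15), Rcsd1 with 302, 53 and 0, and Slc35b4 with 395, 153 and 168. The region at Tnrc6a that holds the Gm39084 octamer window (chr7:123097452-123099246) was listed with 538, 175 and 183 reads (authors' deposited tables, −0.81 ± 0.32 and −0.84 ± 0.31). NELF stayed listed at Tnrc6a in every genotype, with 169.2, 84.9, 144.4 and 116.7 reads in wildtype, Zbtb11KO, Zfp131KO and the double knockout.

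H3K4me3, absent by choice from wildtype lists near these regions, was on the Zbtb11KO, Zfp131KO and double knockout lists within 500 bp of 331 (11.2%), 430 (14.6%) and 1099 (37.2%) of them. These domains were weak, with medians of 14, 21.5 and 50 reads. The H3K4me3 lists themselves held 48716 domains in wildtype and 46585, 44718 and 59520 in the 3 knockouts. At distal domains with ZBTB11, chosen by the same H3K4me3 rule, the shares were 22.1%, 33.2% and 64.5%. Most of the domains that overlapped a region were short and separate from wildtype H3K4me3: of 234, 310 and 863 regions overlapped, 1, 2 and 11 were overlapped by a domain that also covered wildtype H3K4me3, and the others' median lengths were 58.5, 69 and 141 bp. In the authors' deposited table for Zbtb11KO, where 134 of the 234 have an adjusted p, 27 were called higher and 0 lower, beside 21.5% and 13% of all regions. In the authors' deposited table for Zfp131KO, 132 of 310 were called higher and 3 lower, beside 15.1% and 11.4%. Nothing is read from these counts, since the rule left out regions with wildtype H3K4me3. The 3 called lower, named after their values were seen, were H3c6, Slx4ip and Cryzl1 (authors' deposited table, −2.23, −0.92 and −1.43).

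H3K27me3 reached few of the regions, and its calls are named after their values were seen. In Zbtb11KO, 16 regions overlapped the authors' deposited table, 3 rose (Ccdc33, Adk and Sox13), against 9.1% of the table, and 2 fell (Lefty1 and Col4a2), against 4.83%. In Zfp131KO, 21 overlapped the authors' deposited table, 6 rose, against 11.7% of the table, and none fell, against 6.18%. The largest was Rragd, a Rag GTPase of nutrient signalling (authors' deposited table, 2.65 ± 0.61, adjusted p = 0.000332), whose H3K27ac was listed with 98 reads in wildtype, 91 in Zbtb11KO and 0 in Zfp131KO. The others included Akr1b3, Adk, Gtf2a1l and Pde4a, with log2 fold changes of 2.58, 1.19, 2.09 and 1.95 in the authors' deposited table.

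Over all 21883 protein-coding genes, 1603 were the nearest gene of 1 or more regions. Of 30 pluripotency genes, 16 were, with 40 regions in all. Of the other lists, 5 of 16 primitive endoderm, 5 of 10 DNA methylation, 7 of 17 FGF and ERK, 1 of 12 trophectoderm, 2 of 18 neural and none of 16 mesoderm and endoderm genes were. These counts are a description, and the ES cell label was not tested by them. At the 40 pluripotency regions, H3K27ac was called higher at 13 and lower at 2 in Zbtb11KO, and higher at 15 and lower at 2 in Zfp131KO. Over all 2955 regions the called shares were 8.32% higher and 17.1% lower in Zbtb11KO, and 16.1% and 22.4% in Zfp131KO. Their median log2 fold changes in the authors' deposited tables were 0.60 and 0.29, beside −0.18 and −0.15 for all 2955. NELF was tested at 17 and fell at 11, beside 36.4% of all regions tested (median −1.47 in the authors' deposited table, beside −1.10), and of 19 with a wildtype NELF event 0 had one listed in Zbtb11KO. CHD4 events lay at 4 of the 40 in wildtype and at 12 in Zfp131KO, beside 10.8% and 23.4% of all regions, and in the authors' deposited table for Zfp131KO CHD4 rose at 5 of 8 tested, beside 14.4% of all tested. SIN3A was listed at 22 of the 40 in wildtype and fell at 4 of 21 tested in Zbtb11KO and 2 of 19 in Zfp131KO, beside 5.28% and 4.65% of all tested. Some of these counts repeat 1 measurement, because neighbouring regions share a table region. The 2 SIN3A falls in Zfp131KO are 1 measurement at Socs3, and 2 of the 4 in Zbtb11KO are 1 at Nanog. Neighbours at Lifr share 1 CHD4 value, and neighbours at Esrrb, Klf4 and Lifr share H3K27ac values.

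Esrrb, an orphan receptor of the naive network, had its strongest region inside the gene (chr12:86497901-86498995), with 338 H3K27ac reads in wildtype and 1330 and 1600 in Zbtb11KO and Zfp131KO (authors' deposited tables, 1.15 ± 0.31 and 1.31 ± 0.28). It held SIN3A (319.4 reads), SETD1A (245.4) and NELF (119.9) in wildtype. NELF was listed in no knockout and fell in Zbtb11KO (authors' deposited table, −1.62 ± 0.54, adjusted p = 0.0115). A CHD4 event of 160.2 reads was listed in Zfp131KO and none in wildtype (authors' deposited table, 0.78 ± 0.27, adjusted p = 0.0315). At Esrrb, then, acetylation was higher in both knockouts while NELF was lower in the one tested.

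At Klf4, a Krüppel-like factor of the same network, the strongest region lay 52137 bp from the gene (chr4:55474116-55475000). It was listed with 269, 775 and 793 H3K27ac reads in wildtype, Zbtb11KO and Zfp131KO (authors' deposited tables, 1.42 and 1.35). Its NELF event of 129.2 reads was listed in no knockout, but the authors' deposited table gave −0.57 for Zbtb11KO (adjusted p = 0.323). Lifr, a subunit of the LIF receptor, was listed with 105, 717 and 973 H3K27ac reads (chr15:7116107-7116639), with no CHD4 event in wildtype and one of 191 reads in Zfp131KO (authors' deposited table for CHD4, 1.67 ± 0.28, adjusted p = 3.29e-07). Fgf4, the main FGF ligand of ES cells, was listed with 105, 210 and 488 reads (chr7:144857404-144857850), and its wildtype NELF event of 166.5 reads was absent from the knockout lists (authors' deposited table, −2.26 ± 0.54, adjusted p = 0.000516). All 3 were listed with more acetylation in both knockouts. Of the regions at Nanog, a homeobox factor of the network, the strongest (chr6:122715255-122715998) was listed with 167, 155 and 23 reads, and H3K27ac changes there were −0.37 and −0.81 in the authors' deposited tables, neither called. A weaker one, starting at 122716754, was listed with 56, 0 and 0 reads and was called lower in both knockouts (authors' deposited tables, −1.75 and −1.72). SIN3A fell at the strongest Nanog region in Zbtb11KO, from 230.3 to 106.1 listed reads (authors' deposited table, −0.84 ± 0.25, adjusted p = 0.0206).

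Most regions nearest to primitive endoderm genes were called lower in H3K27ac in both knockouts. Of 16 such genes, 5 had regions, 11 in all: Lamc1, Sparc, Col4a1, Col4a2 and Cubn, which encode basement membrane components and an endocytic receptor. No region had Gata4, Gata6, Sox17, Sox7 or Pdgfra, the factors and receptor that define the lineage, as its nearest gene. H3K27ac was called lower at 9 of the 11 in Zbtb11KO and at 8 in Zfp131KO, beside 17.1% and 22.4% of all 2955 regions, and higher at none, with medians of −1.37 and −2.64 in the authors' deposited tables. No knockout domain overlapped 7 of them in Zbtb11KO and 8 in Zfp131KO, where domains overlapped 67.8% and 71.2% of all 2955 regions. CHD4 events lay at 8 of the 11 in wildtype and at 2 in Zfp131KO, beside 10.8% and 23.4% of all regions. SIN3A was listed at 1 in wildtype, beside 49.6% of all. Neighbouring Lamc1 regions share a CHD4 event of 77.1 reads and the Sparc regions share one of 49.6 reads. The count of 8 therefore repeats some events. In bulk chromatin these values do not say how many cells of the wildtype culture carried the acetylation.

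The strongest of these with a CHD4 event was at Lamc1, laminin gamma 1 (chr1:153355833-153356425). It was listed with 163 H3K27ac reads in wildtype and in neither knockout (authors' deposited tables, −1.73 and −2.98). Its CHD4 event of 77.1 reads was absent from both knockout lists, and CHD4 fell in Zbtb11KO (authors' deposited table, −1.74 ± 0.47, adjusted p = 0.00453) and in Zfp131KO (authors' deposited table, −3.98 ± 0.55, adjusted p = 3.52e-10). A neighbouring Lamc1 region shares that CHD4 table region, so the 2 CHD4 falls of this list in Zbtb11KO are 1 measurement. Sparc, a matricellular glycoprotein (chr11:55429959-55430574), was listed with 146, 0 and 0 H3K27ac reads, and its CHD4 event of 49.6 reads was absent from the knockout lists. CHD4 at Sparc fell in Zfp131KO (authors' deposited table, −1.73 ± 0.42, adjusted p = 0.00101), and in Zbtb11KO the authors' deposited table gave −0.45 (adjusted p = 0.579). NELF went the other way from acetylation at Sparc and Col4a2: Sparc had no wildtype event and 51.3, 65 and 81 reads in Zbtb11KO, Zfp131KO and the double knockout, and Col4a2 had 48.2 reads in wildtype and 79.2, 67.8 and 75.2 in the knockouts. None of the 4 regions of this list tested for NELF was called, and their median was 0.86 in the authors' deposited table. Col4a2 (chr8:11315805-11316173) went from 95 H3K27ac reads to 0 in both knockouts (authors' deposited tables, −3.10 and −4.12), and H3K27me3 there fell in Zbtb11KO (authors' deposited table, −1.45 ± 0.34, adjusted p = 0.000644).

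**Figure D5:**
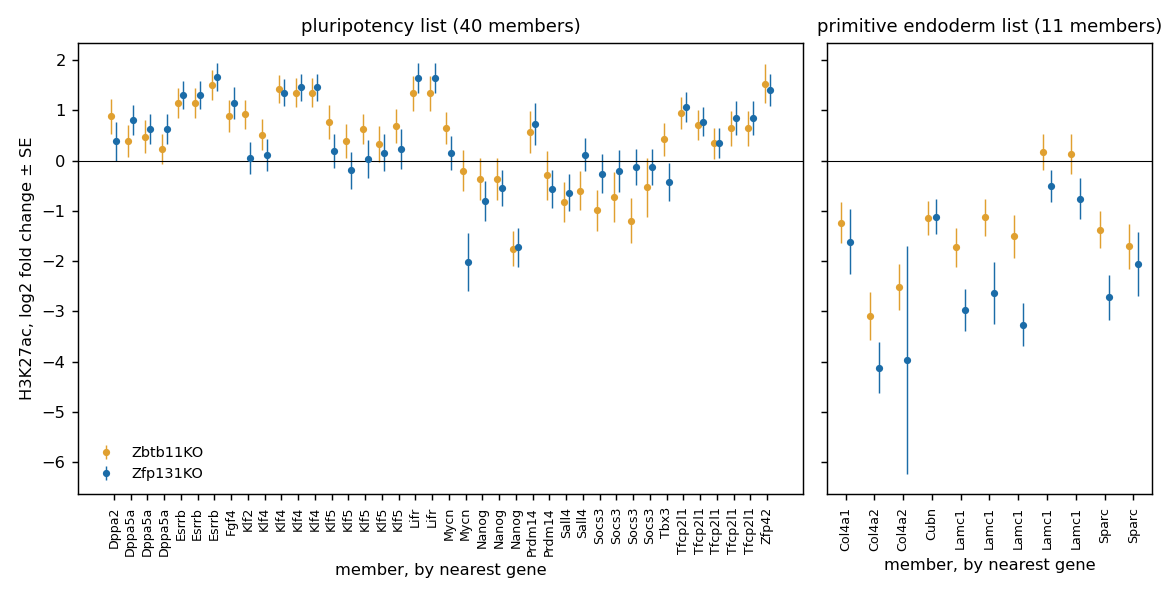
Log2 fold change of H3K27ac with its standard error, knockout over wildtype, at the 40 regions nearest to pluripotency genes and the 11 nearest to primitive endoderm genes, in Zbtb11KO and Zfp131KO; each point is 1 region. In Zbtb11KO 13 of the 40 were called higher and 2 lower, and 9 of the 11 were called lower.

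Signalling genes split. At the 6 regions of 3 Nodal and BMP genes, H3K27ac was called lower at 5 in Zbtb11KO and at 4 in Zfp131KO, beside 17.1% and 22.4% of all regions. Lefty1, a Nodal antagonist (chr1:180924076-180924775), was listed with 191, 0 and 10 H3K27ac reads, its NELF event of 163.3 reads was absent from the knockout lists, and H3K27me3 fell there in Zbtb11KO (authors' deposited table, −1.60 ± 0.51, adjusted p = 0.0178). The strongest region of Bmpr1a, a BMP receptor, was not called and was listed with 238, 134 and 221 reads, while a weaker one (chr14:34454134-34454623), listed with 101, 0 and 12 reads, was called lower in both knockouts. Of 19 regions of 7 FGF and ERK genes, 2 were called higher and 3 lower in Zbtb11KO, and 7 higher and 4 lower in Zfp131KO, beside 8.32% and 17.1%, and 16.1% and 22.4%, of all regions. Within that list several Etv5 regions stood higher, and the strongest region of the receptor Fgfr1 and that of the phosphatase Dusp6 stood lower. Some neighbouring Etv5 regions share a table region, so their H3K27ac calls are not separate measurements. The Etv5 region starting at 22402883 on chromosome 16 was listed with 94, 393 and 484 H3K27ac reads, and CHD4 rose there in Zfp131KO (authors' deposited table, 1.06 ± 0.27, adjusted p = 0.002), whereas the strongest Etv5 region, at 22416526, was listed with 323, 212 and 297 reads and a CHD4 change of 0.01 (authors' deposited table, adjusted p = 0.987). Regions of 1 gene therefore differed from each other. Fgfr1 was listed with 138, 0 and 0 reads at its strongest region and Dusp6 with 65, 0 and 0.

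The 15 regions of 5 formative and primed genes were called higher at 1 and lower at 3 in Zbtb11KO and higher at 5 and lower at 2 in Zfp131KO, beside the same shares of all regions, and the Etv5 regions are counted here too. The strongest regions of the de novo methyltransferase genes on that list were called lower in both knockouts. Dnmt3b was listed with 62, 0 and 0 H3K27ac reads (authors' deposited tables, −2.14 and −2.25) and Dnmt3a with 82, 0 and 0 (authors' deposited tables, −0.94 and −1.57). Otx2, the homeobox gene of the formative state, was listed with 163, 176 and 214 reads and was not called. Of the 10 regions of the DNA methylation list, H3K27ac was called higher at 2 and lower at 3 in Zbtb11KO. In Zfp131KO it was called higher at 1 and lower at 3. The strongest Dnmt3l region was not called (authors' deposited tables, −0.55 and −0.83). In the same list, a region near Tet1, which oxidises methylcytosine, gained a CHD4 event of 55.5 reads in Zfp131KO (authors' deposited table, 1.87 ± 0.53, adjusted p = 0.00677). Among chromatin regulators, Smarca4, the BAF ATPase, was listed with 176, 176 and 623 H3K27ac reads (authors' deposited table for Zfp131KO, 1.19). At Gatad2a, a NuRD subunit, NELF fell in Zbtb11KO (authors' deposited table, −1.59, adjusted p = 0.0167) and H3K27ac was listed with 485, 348 and 379 reads.

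Only 3 p53 target genes had a region, 1 each. The Cdkn1a region, the cell cycle inhibitor whose start site is printed above (chr17:29090333-29092040), was listed with 427 H3K27ac reads in wildtype, 54 in Zbtb11KO and 679 in Zfp131KO. The authors' deposited tables gave −1.04 ± 0.34 in Zbtb11KO and 0.53 ± 0.29 in Zfp131KO, so acetylation stood on opposite sides of wildtype in the 2 knockouts, with only the first called. Its NELF event was listed in every genotype, with 115.2, 74.2, 290.7 and 126.5 reads in wildtype, Zbtb11KO, Zfp131KO and the double knockout. The nearest strong H3K4me3 domain, of 5166 reads, began 1196 bp past the region in wildtype, and in Zbtb11KO one of 5982 reads began 1336 bp past it. In Zfp131KO and the double knockout a single domain of 9618 and 19095 reads, 6748 and 6867 bp long, covered the printed window. The double knockout domain covered the whole region, and the Zfp131KO domain (chr17:29090502-29097250) began inside the region and covered the rest of it. In Zbtb11KO a separate weak domain of 77 reads lay within 500 bp. The strong H3K4me3 domain thus reached the Cdkn1a region in the Zfp131KO and double knockout lists and stopped short of it in the others. Phlda3 was listed with 46, 26 and 91 H3K27ac reads and Trp53inp1 with 41, 12 and 1939. The authors' deposited tables gave 0.02 in Zbtb11KO and 0.79 in Zfp131KO at Phlda3, and 0.05 and 0.61 at Trp53inp1. Both were called higher in Zfp131KO and neither was called in Zbtb11KO. Listed reads can come from a knockout domain longer than the region.

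Housekeeping, immediate early and neural lists held few regions, and these differed among themselves. Of 7 housekeeping regions, H3K27ac was called lower at 1 in Zbtb11KO and 2 in Zfp131KO, beside 17.1% and 22.4% of all regions, and higher at none. A region 17300 bp from Actb, beta-actin, was listed with 244 H3K27ac reads in wildtype and 0 in both knockouts. Its CHD4 event of 67.3 reads was absent from both lists, with a fall in Zfp131KO (authors' deposited table, −1.41, adjusted p = 0.00247). Its NELF event was listed in Zfp131KO (101 reads) and in the double knockout (112.2 reads), and not in wildtype. Tuba1b, an alpha-tubulin gene, was listed with 427, 355 and 1054 reads and was not called. Nr4a1, an immediate early receptor gene, was listed with 170, 427 and 374 reads, and NELF fell there in Zbtb11KO (authors' deposited table, −1.78, adjusted p = 0.00266). A region 89229 bp from Myc was listed with 101, 50 and 0 reads (authors' deposited tables, −0.33 and −1.55). Hes1, a Notch target, had a region 122682 bp away listed with 84, 232 and 321 reads (authors' deposited tables, 1.07 and 1.41).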

How the data were processed

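Per the submitters' processing notes, reads were aligned with Bowtie 1.0.1 and changes were tested with DESeq2 1.28.1. Coordinates are mm10. Per the file headers, binding events carry a signal (reads summed over replicates, against 45.3 M control reads), a log2 fold over control and a log2 p score. The deposited domain lists, called at p under 0.01 on pooled replicates, hold read counts and p-values. Each of the authors' deposited tables gives, per region, a mean signal of unstated scaling, a log2 fold change, its error, a test score and p-values adjusted over the table.

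Regions were built in Python 3.11.15 with pandas 2.3.3, numpy 2.4.6, scipy 1.17.1 and matplotlib 3.10.9. Each took the nearest of 21883 protein-coding genes (RefSeq GRCm38.p6), events or domains within 500 bp, and the overlapping table region of highest mean signal, so neighbours can share one. Calls use an adjusted p under 0.05. The steps were tested on simulated data.

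Named are the 10 strongest regions and up to 4 regions per gene list (14 lists, 240 genes), 1 per gene, the 5 strongest stretches, and up to 4 rises and 4 falls per comparison whose mean signal reached the table's median; other names were picked after their values were seen. The members and lists were chosen with earlier results of these data known. No per-library value was analysed here, and the domains' own sequence was not used here. Some named regions are not reported here.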

Additional observations from a re-analysis of the deposited data

How the results depend on the processing

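Of 163 alternative values, 80 stayed within the margin (1.5 times for counts) and 83 did not; their causes were not tested beyond the smaller or larger number of regions that each setting keeps. No paired analysis was possible because the files hold pooled lists and finished tables with no values per library, and for the same reason leaving out each library was not run. Pairs below are rises and falls.

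With a length of 500 bp or more, 830 regions remained, with CHD4 at 16.0%, SIN3A at 62.5%, NELF at 59.0%, SETD1A at 12.8% and POL2S5P at 73.4%. Calls were then 19 and 6 for CHD4 in Zbtb11KO, 44 and 27 in Zfp131KO, 19 and 28 for SIN3A in Zbtb11KO, 17 and 18 in Zfp131KO, 1 and 178 for NELF, 70 and 127 for H3K27ac in Zbtb11KO, 154 and 164 in Zfp131KO, and 0 and 1 for H3K27me3 in Zbtb11KO, with 0 rises in Zfp131KO. Without H3K4me3 of any genotype within 1 kb, 1569 regions remained. H3K27me3 falls in Zbtb11KO were 1 with no H3K4me3 within 2 kb, and 1 with the table region of longest overlap, an alternative chosen after seeing the data.

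Counting overlap alone, CHD4 was at 4.37%, SIN3A at 24.8%, NELF at 28.2%, SETD1A at 2.54% and POL2S5P at 50.4%, and the NELF lists of Zbtb11KO, Zfp131KO and the double knockout covered 3.15%, 7.72% and 3.15%. Within 1 kb the shares were 14.4%, 57.4%, 52.8%, 12.4% and 67.8%, and NELF was listed at 12.8% in Zfp131KO. With the events or domains above each list's median reads they were 6.90%, 24.5%, 13.4%, 4.91% and 50.1%.

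At an adjusted p under 0.01, calls were 27 and 7 for CHD4 in Zbtb11KO, 38 and 36 in Zfp131KO, 19 and 35 for SIN3A in Zbtb11KO, 18 and 16 in Zfp131KO, 0 and 208 for NELF, 137 and 275 for H3K27ac in Zbtb11KO, 282 and 422 in Zfp131KO, with 1 fall of H3K27me3 in Zbtb11KO and 3 rises in Zfp131KO. With table regions within 500 bp, CHD4 had 67 and 25 in Zbtb11KO and 141 and 86 in Zfp131KO, SIN3A 72 falls in Zfp131KO, NELF 7 rises and H3K27me3 4 falls in Zfp131KO. Among table regions whose mean signal reached the table's median, CHD4 had 5 falls in Zbtb11KO and 22 in Zfp131KO, SIN3A 4 and 19 in Zbtb11KO and 6 and 31 in Zfp131KO, NELF 1 and 46, H3K27ac 136 and 7 in Zbtb11KO and 286 and 12 in Zfp131KO, and H3K27me3 0 and 1 in Zbtb11KO and 0 rises in Zfp131KO. The H3K27ac calls thus ran mostly lower over all regions and mostly higher among those of high mean signal. The mean signal includes the knockout libraries, so the cut favours rises and no direction is read from it.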

Other observations

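Distance to the nearest ZBTB11-HA event, mapped in another medium, was set beside the calls as values with no test. Regions 0.5 to 2 kb, 2 to 10 kb, 10 to 50 kb and over 50 kb from an event numbered 188, 906, 1288 and 573. H3K27ac was called lower in Zbtb11KO at 16.0%, 14.8%, 16.8% and 21.6% of them, and higher at 11.7%, 9.49%, 7.38% and 7.50%. NELF fell in Zbtb11KO at 36.2%, 35.8%, 36.4% and 37.9% of those tested in the authors' deposited table. CHD4 rose in Zfp131KO at 9.26%, 12.8%, 14.9% and 18.4% of 54, 195, 288 and 109 tested in the authors' deposited table.

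The strongest wildtype CHD4 events at the regions lay near Gm52481 on chromosome Y (515.5 reads), Klf9, a Krüppel-like factor gene (162.6 reads), and Fam43a (162.2 reads). The Gm52481 region had 97 control reads beside 110 H3K27ac reads, against a median of 16 control reads over all regions. The strongest SIN3A events lay near Elf3, an epithelial ETS factor gene, with 454.1 reads in wildtype and 259 in Zbtb11KO, and near Ebf1, a B-lineage factor gene, with 393.5 reads and no listed event in Zbtb11KO. SIN3A at Elf3 fell in both comparisons in the authors' deposited tables (−0.53 ± 0.18, adjusted p = 0.0485, in Zbtb11KO, and −0.63 ± 0.19, adjusted p = 0.0264, in Zfp131KO).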
